A study of Neurospora crassa with 20 samples.

Results

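The regions described here were the H3K4me3 peaks of intermediate width in dark-grown wild type (WT) Neurospora crassa, a filamentous fungus. They were chosen by width alone, as the peaks of the WT DD H3K4me3 list that spanned from 1000 bp to under 2000 bp. This rule took 2580 of the 4449 peaks in that list, or 58.0%, and 3.79 Mb of the 6.55 Mb that the list covered. The width that chose the peaks is given below as a description only. The study profiled H3K4me3 and H3K9me3 by chromatin immunoprecipitation and sequencing (ChIP-seq) in 20 samples of mycelia, 2 replicates of each of 10 combinations of strain, light and antibody. All cultures grew for 24 h in light and then for 24 h in darkness, which in LP30 was followed by 30 min of light and in DD by no light pulse. The WT peaks were followed into 3 other H3K4me3 lists, which were WT LP30, Δkmt1/Δdim-5 DD and Δkmt1/Δdim-5 LP30. The Δkmt1/Δdim-5 strain lacks DIM-5, the H3K9 methyltransferase of this fungus. It and the Δkmt2/Δset-1 strain, which lacks the H3K4 methyltransferase, were deletion strains from a knockout collection that had been backcrossed.

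Each H3K4me3 list was 1 set of peaks per condition, with 2 replicate ChIPs behind it, and all 4 lists were called against the same control, the H3K4me3 ChIP of the Δkmt2/Δset-1 strain in the dark. Replicates could not be separated, so the spread between replicates is unknown, no difference between conditions could be tested, and no p-value is given. Peaks share their libraries and are not replicates of a condition. The lists hold no read totals. The lists contained 4544 peaks for WT LP30, 4815 for Δkmt1/Δdim-5 DD, 4822 for Δkmt1/Δdim-5 LP30 and 4449 for WT DD, and the widths of 1 to 2 kb made up 57.2%, 52.4%, 51.9% and 58.0% of them, in that order.

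H3K4me3 is the trimethylated form of lysine 4 of histone H3. In fungi as in animals it is laid down by a SET1-type complex that travels with RNA polymerase II early in transcription, so the mark is known to sit over the 5′ part of transcribed genes and to fade along the gene body. A peak caller reports such a domain as a left edge, a right edge and a summit, the base with the strongest signal. The position of the summit between the edges, the spacing to the next domain and the constancy of these 3 points between lists therefore describe the shape of the mark on a typical gene.

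The 1 to 2 kb peaks had a median width of 1453 bp, with an interquartile range of 1254 to 1675 bp. Their fold enrichment at the summit, the ratio of ChIP pileup to control pileup, ran from 1.08 to 3.26 with a median of 1.78, against 1.73 over all peaks of the list. The median was 1.85 in the 863 peaks of 2 kb or more, 1.47 in the 592 peaks of 500 bp to under 1 kb and 1.21 in the 414 peaks under 500 bp. A q value under 0.01 was reached by 2569 of the 2580 peaks, or 99.6%, against a background of 93.9% of all peaks. All but 1 lay on the 7 chromosomes, where they made up between 54.7% of the peaks of chromosome VII and 61.1% of those of chromosome V. The exception lay on unplaced contig 20, and it was the single peak with no overlapping peak in any of the other 3 lists. Just inside the lower limit, the peaks at NCU02475, NCU02499 and NCU08331 were 1000 bp wide with folds of 1.23, 1.39 and 1.58. Just outside it, those at NCU02567, NCU03500 and NCU06496 were 999 bp wide with folds of 1.56, 1.37 and 1.69. At the upper limit, NCU02103 and NCU06737 were just inside at 1999 bp and NCU03441 at 1998 bp, with folds of 2.30, 1.94 and 1.93. NCU04315, frh (NCU03363) and NCU05989 were just outside at 2002, 2004 and 2005 bp, with folds of 1.91, 1.83 and 1.68.

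The fold of these peaks followed the control pileup more closely than the ChIP pileup, whose values lay near an upper limit. The ChIP pileup, the number of fragments over the summit, and the scaled control pileup were solved from the fold and the p-value of each peak. In WT DD the ChIP pileup of the 1 to 2 kb peaks had a median of 403 fragments and 5th and 95th percentiles of 338 and 419. The scaled control pileup had a median of 221 and 5th and 95th percentiles of 185 and 272. Across the 2580 peaks, Spearman's rho with the fold was −0.87 for the control pileup and 0.34 for the ChIP pileup, as a description over peaks that share 1 ChIP list and 1 control. The control pileup is the denominator of the fold, so with ChIP pileups in this narrow range a strong negative rho is built in. The highest ChIP pileup on the chromosomes was 431 for WT LP30, 441 for Δkmt1/Δdim-5 DD, 435 for Δkmt1/Δdim-5 LP30 and 429 for WT DD. These values were 99.3%, 99.3%, 99.8% and 99.3% of a pileup equal to 2 times the shortest peak of each list, which was 434, 444, 436 and 432 fragments. The caller sets the shortest peak from the fragment length, and if 1 read is kept per position and strand, no more than 2 fragments per base of that length can stack. The methods of the study name the default setting of the caller for H3K4me3, which keeps reads in this way. In WT DD 1925 of the 1 to 2 kb peaks, or 74.6%, had a summit within 10% of that limit, as had 92.9% of the peaks of 2 kb or more, 14.2% of those of 500 bp to under 1 kb and none under 500 bp. The part of this limit in the positions of the summits was not tested.

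**Figure D1:**
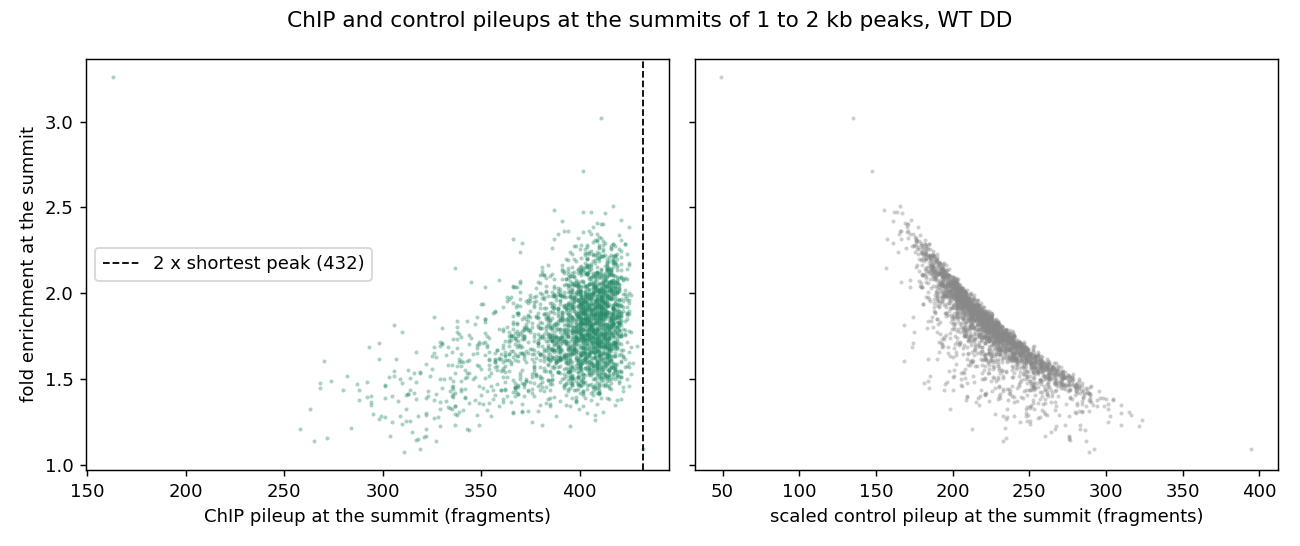
Fold enrichment at the summit of each of the 2580 H3K4me3 peaks of 1 to 2 kb in WT DD against the ChIP pileup (left) and the scaled control pileup (right), both in fragments. Points crowd below the dashed line at 432 fragments, 2 times the shortest peak of the list, and the fold is lower where the control pileup, its denominator, is higher.

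The highest fold belonged to NCU09969 on chromosome VI (NC12, 318197 to 319240), at 3.26, where 163 ChIP fragments stood over a control of 49.3. The ChIP pileup there was the lowest and so was the control, and the peak was present in WT LP30 at a fold of 3.55 and absent from both Δkmt1/Δdim-5 lists. A peak near NCU08779 on chromosome III (5153371 to 5154373) had a fold of 3.02 from 411 ChIP fragments over a control of 135, with its summit 838 bp from the gene. It was kept at folds of 2.94 in WT LP30 and, in Δkmt1/Δdim-5, 2.92 in DD and 2.82 in LP30. The peak of ckb-1 (NCU05485), the regulatory subunit of casein kinase II, had a fold of 2.71 in WT DD. Its summit moved by 6 bp in WT LP30 and by 587 and 461 bp in Δkmt1/Δdim-5 DD and LP30, where the folds were 1.69 and 1.89. The remaining members of the top 8 were NCU11348 (2.51), stk-10 (NCU03200, 2.49), ppm-1 (NCU00087, 2.48), nfh-1 (NCU03300, 2.47), which encodes a 14-3-3 protein, and NCU00225 (2.47). Their ChIP pileups spanned 387 to 417 fragments, close to the median of all 1 to 2 kb peaks, and their control pileups spanned 155 to 167, below the 5th percentile of 185. At such ChIP pileups, peaks chosen by a high fold have a low control by construction.

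Summits sat inside the peaks rather than at their edges. The nearer edge was a median of 497 bp from the summit, with an interquartile range of 393 to 623 bp, or 35.1% of the width. A summit in the outer 25% of the width at either side was found in 451 peaks, or 17.5%, against a background of 20.8% of all peaks, and 874 peaks, or 33.9%, had it in the middle 20%, near the background of 33.0%. Only 3 had it in the outer 10%. The corresponding shares of summits in the outer 25% were 24.9% for peaks of 2 kb or more, 18.6% for 500 bp to under 1 kb and 36.2% under 500 bp. Counted from the left edge of the chromosome map, 48.4% of summits lay on the left side of the peak centre. In 10 equal steps of the width from the left edge, the peaks numbered 2, 99, 312, 442, 394, 480, 433, 316, 101 and 1, so that summits were spread almost evenly to both sides of the centre. The 4 summits nearest a left edge belonged to NCU03699 at 1.89% of the width, NCU00691 at 2.67%, NCU02328 at 10.4% and sah-1 (NCU04179) at 12.3%. The first 3 of these had folds of 1.14, 1.09 and 1.16, near the lowest of the peaks. The 4 nearest a right edge were NCU07736 at 99.9% with a fold of 1.08, NCU00650 at 89.8%, NCU12156 at 88.6% and NCU07831 at 88.4%, with folds of 1.93, 1.65 and 1.88.

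Nearly all of these peaks lay on genes, and most of them lay within a single gene. The summit fell in an annotated gene for 2563 of the 2579 peaks on the chromosomes, against a background of 97.9% of all peaks. The 2563 summits occupied 2558 genes, of 10397 annotated, and 5 genes held 2 such peaks. No gene end lay within the peak in 1719 cases, or 66.7%, 1 end lay within it in 691 and 2 or more in 160, and 9 peaks touched no gene. The gene that held the summit was a median of 2461 bp long and the peak covered a median of 59.5% of it. As a description within the limits that chose the peaks, the median width was 1234 bp on the 222 genes under 1500 bp, 1422 bp on 1104 genes from 1500 to under 2500 bp, 1520 bp on 867 genes from 2500 to under 4000 bp and 1570 bp on 370 longer genes. The share of the gene that was covered was 90.5%, 71.9%, 48.7% and 31.6% in these length groups, with the width held to 1000 to 1999 bp by the rule. Outside the limits, the genes under the summits of peaks of 2 kb or more had a median length of 3629 bp.

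One edge of the peak tended to coincide with one end of the gene. The reference gives gene spans without strand, so 5′ and 3′ ends could not be told apart, and the edge nearer to the gene end on its own side was called the gene-end edge and the opposite one the inner edge. The gene-end edge lay within 200 bp of the end of the gene in 1931 peaks, or 75.3% of those with the summit in a gene, against 65.0% of the peaks of any width with the summit in a gene and a background of 63.6% of all peaks. In these the edge was a median of 24 bp inside the gene, with an interquartile range from 18 bp outside to 78 bp inside, and the gene end was the left one 964 times and the right one 967 times. The summit was nearer to the gene-end edge than to the inner edge in 1521 of the 1931, or 78.8%, and in 416 of the 632 peaks with no gene end so close, or 65.8%. The asymmetry was clearest in the 1218 peaks with 1 edge at a gene end and the inner edge over 500 bp from the other end of that gene. In the 1218 peaks the summit was on the gene-end side in 1039, or 85.3%. It lay a median of 538.5 bp inside the gene, with an interquartile range of 405 to 692 bp. From the gene-end edge it stood at a median of 34.8% of the width. The inner edge was a median of 1251.5 bp inside the gene, but the limit of 500 bp held to either side of the other end. Peaks that reached beyond that end were therefore also taken, such as NCU12156, with edges 98 and 791 bp outside the gene. A summit in the gene falls largely on the gene-end side by construction in such peaks, which were not counted apart. The same measure gave 87.2% of 335 peaks of 2 kb or more, 58.1% of 260 peaks of 500 bp to under 1 kb and 31.0% of 84 peaks under 500 bp. In the 266 peaks that spanned a whole gene, with both edges within 200 bp of its ends, the share was 62.0%. Aligned on the gene, the summits were thus unevenly placed, while by left and right of the map they were not.

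**Figure D2:**
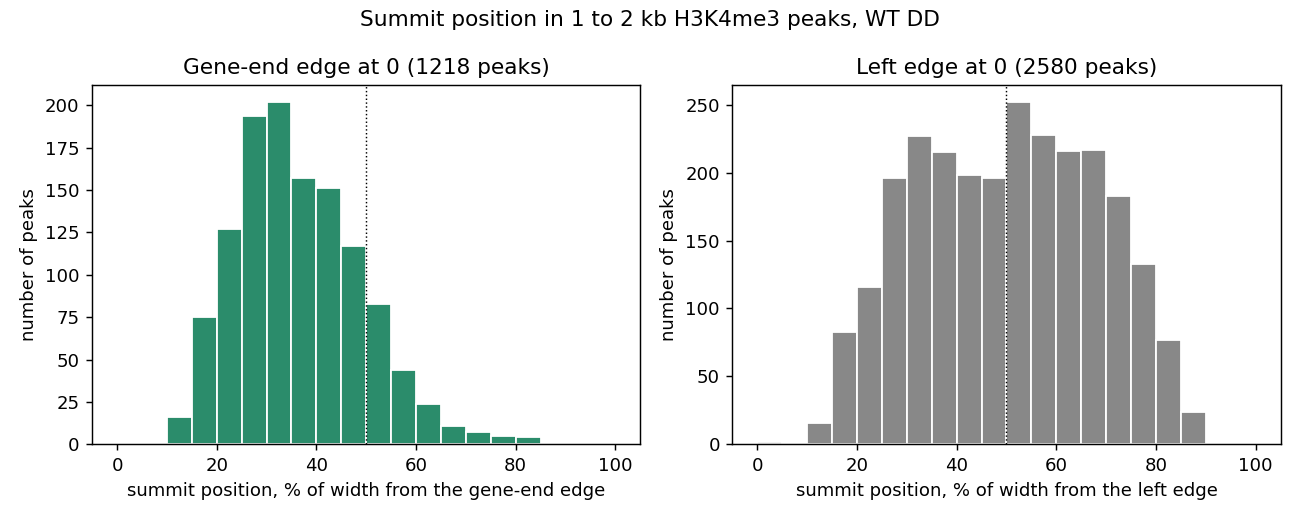
Summit position as a percentage of peak width in WT DD, from the gene-end edge in the 1218 peaks with a single edge at a gene end (left) and from the left edge in all 2580 peaks of 1 to 2 kb (right). Bars count peaks in steps of 5% of the width and the dotted line marks the centre. Aligned on the gene end, 85.3% of summits lie left of the centre, with a median of 34.8%, and without this alignment 48.4% do.

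Genes with known functions were looked up in 5 lists. A 1 to 2 kb summit was held by 24.6% of all annotated genes and a summit of any width by 40.5%. Of 10 chromatin modifiers 7 held one, of 6 histone genes 3, of 7 housekeeping genes 3 and of 20 light response and clock genes 1, and these counts were not tested. Of 9 loci shown by the study, a list it chose on these samples and so no independent evidence, NCU09969 and NCU03747 held one. Among the other 19 light and clock genes, 6 held a summit of a peak of 2 kb or more (wc-1, wc-2, frh, ck-1a, sub-1 and adv-1), 2 held a narrower one (al-3 and nop-1) and 11 held none, frq, vvd, al-1, con-10, con-6, ccg-1 and eas included. This counts only called WT DD peaks with the summit in the gene. The study describes H3K4me3 signal at frq, near the start of its antisense transcript qrf. At vvd it describes a small increase after light. The 1 member among the light and clock genes was al-2 (NCU00585), the phytoene synthase of carotenoid synthesis, with a peak 1116 bp wide at a fold of 1.36. Its width was 1074 bp in WT LP30 and, in Δkmt1/Δdim-5, 1012 bp in DD and 614 bp in LP30. The peak was thus shortest in Δkmt1/Δdim-5 LP30, where its fold was 1.33, against 1.36 in WT DD.

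The 7 chromatin modifiers were dim-5, the H3K9 methyltransferase, hpo, which encodes HP1, dim-7, dim-8 and dim-9, partners of DIM-5 in the complex that directs H3K9 methylation, set-2, the H3K36 methyltransferase, and ngf-1, a GCN5-type histone acetyltransferase. Their folds in WT DD lay between 1.31 for dim-9 and 2.01 for dim-7. At dim-8 (NCU06605, chromosome IV, 1782131 to 1783270) the gene-end edge lay 7 bp inside the gene and the summit 637 bp inside it. That edge was 11, 14 and 29 bp further inside the gene in WT LP30, Δkmt1/Δdim-5 DD and Δkmt1/Δdim-5 LP30, while the inner edge was 67, 280 and 293 bp further along the gene. At set-2 (NCU00269) the outward displacement of the inner edge was −15 bp in WT LP30 and 213 and 230 bp in Δkmt1/Δdim-5 DD and LP30. At dim-9 (NCU01656) it was −232 bp in WT LP30 and 593 and 764 bp in the Δkmt1/Δdim-5 lists, where the peak was 2050 and 2223 bp wide, against 1474 bp in WT DD. At hpo (NCU04017), ngf-1 (NCU10847) and dim-7 (NCU04152) no inner edge was displaced by more than 58 bp except that of hpo in Δkmt1/Δdim-5 LP30, at 162 bp outward, so the edges of dim-7 and ngf-1 nearly coincided in all 4 lists.

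Of the core histone genes, hH3 and hH4-1 are neighbours on chromosome II, and each held a peak of 1 to 2 kb, at widths of 1058 and 1123 bp and folds of 1.86 and 2.07, separated by 1914 bp. The gene-end edge of the hH3 peak lay 269, 310 and 372 bp outward in WT LP30, Δkmt1/Δdim-5 DD and Δkmt1/Δdim-5 LP30. The outward displacement of its inner edge was only −9, −4 and −16 bp. The 2 edges of the hH3 peak lay 143 and 206 bp inside the gene, so its gene-end label rested on a small difference. The peak of hH4-1 kept its gene-end edge within 9 bp in the other 3 lists. Its inner edge lay 58 bp outward in WT LP30 and, in Δkmt1/Δdim-5, 175 bp outward in DD and 138 bp outward in LP30. In both peaks the edge that faced the other across the gap of 1914 bp was thus held, and the opposite edge lay outward. The peak of hH2B was 1352 bp wide in WT LP30 and, in Δkmt1/Δdim-5, 903 bp in DD and 922 bp in LP30, against 1117 bp in WT DD, so it was longer after light in WT and shorter in both Δkmt1/Δdim-5 lists. Among housekeeping genes the class held am, the NADP-specific glutamate dehydrogenase, gpd-1, glyceraldehyde-3-phosphate dehydrogenase, and cya-4, a subunit of cytochrome oxidase. At gpd-1 the summit was at 15.3% of the width, counted from the left edge. It moved by 0, 6 and 75 bp in WT LP30, Δkmt1/Δdim-5 DD and Δkmt1/Δdim-5 LP30. The gene-end edge of gpd-1 was the right one, and the summit lay 1617 bp from that gene end. That edge lay 13, 196 and 158 bp outward in these lists, and the inner edge 13, 17 and 33 bp outward. The summits of am and cya-4 moved by up to 65 and 590 bp. Actin, beta-tubulin and citrate synthase, encoded by act, Bml and cit-1, had wider peaks, of 2227, 2520 and 2006 bp. The remaining housekeeping gene, tef-1 (NCU02003), had a narrower one, of 624 bp at a fold of 1.36.

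The gap from a 1 to 2 kb peak to its nearest neighbour of any width had a median of 1465 bp and an interquartile range of 608.5 to 3384.5 bp. A neighbour within 500 bp was found for 525 peaks, or 20.3%, against a background of 20.9% of all peaks, and within 1 kb for 997, or 38.6%, against 36.8%. A gap of over 20 kb to any other peak was found for 23 peaks, against a background of 1.12% of all peaks. The 2 most isolated were each other's neighbours across 38510 bp on chromosome II, at NCU08445 and NCU09336, followed by hcp-1 (NCU07221) with a gap of 35833 bp and NCU10073 with 31746 bp. From summit to next summit the median step was 5011.5 bp. The next peak to the right was again 1 to 2 kb wide in 1516 cases, or 58.9%, close to the share of this class in the list. Peaks leaned towards close neighbours. With both neighbours known and a gap under 1 kb, the summit was on the side of the nearest neighbour in 680 of 995 peaks, or 68.3%. With a longer gap it was so in 810 of 1577, or 51.4%. These shares are given for this width class only, with no background from peaks of other widths. The part of gene-end edges, on whose side most summits lay, was not tested.

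Short gaps were more frequent where gene ends faced each other. Among the 1516 pairs of neighbouring 1 to 2 kb peaks, 872 had a gene-end edge in both peaks on 2 different genes. These were 272 facing pairs, with the gene-end edges next to each other, 359 tandem pairs and 241 back to back pairs, with the inner edges next to each other. The gap had a median of 635 bp in facing pairs, 3275 bp in tandem pairs and 3806 bp in back to back pairs. It was under 1 kb in 156 facing pairs, or 57.4%, in 70 tandem pairs, or 19.5%, and in 34 back to back pairs, or 14.1%, against 23.4% of all 1516 pairs. The summits of facing pairs were a median of 1803 bp apart and their genes 558.5 bp apart. Since gene-end edges lie by construction near gene ends, the gap of a facing pair follows the distance between its genes.

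**Figure D3:**
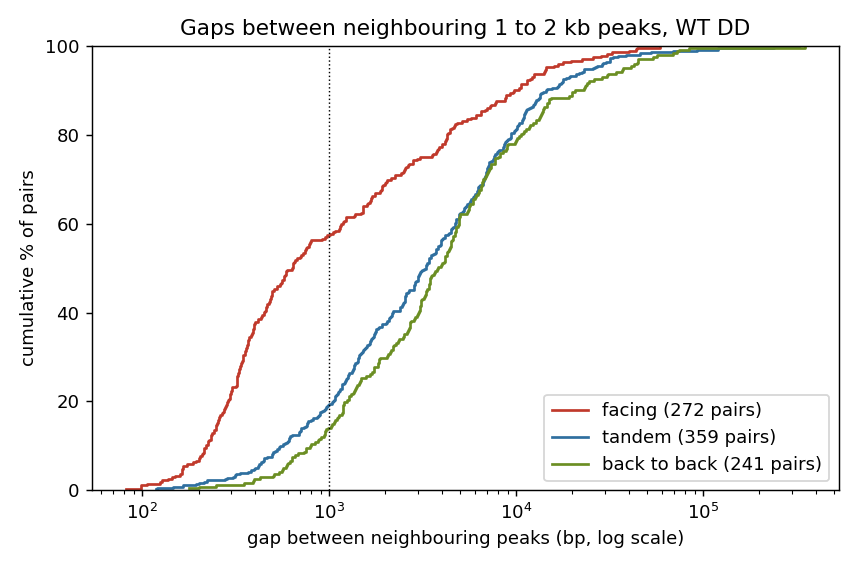
Cumulative share of pairs of neighbouring 1 to 2 kb H3K4me3 peaks in WT DD by the gap between them in bp, on a log axis, for facing (272), tandem (359) and back to back (241) pairs of gene-end edges. At the dotted line of 1 kb the curves stand at 57.4%, 19.5% and 14.1%.

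The short facing gaps recurred in the other lists. Of the 156 facing pairs closer than 1 kb, both peaks stayed separate in 156 in WT LP30 and, in Δkmt1/Δdim-5, 155 in DD and 155 in LP30, and the gap was within 100 bp of its WT DD value in 156, 152 and 150 of these. The shortest gap separated NCU09488 and NCU09489 on chromosome II, at 109 bp in WT LP30 and, in Δkmt1/Δdim-5, 98 bp in DD and 85 bp in LP30, against 82 bp in WT DD. The gap between NCU02983 and rpn-10, a proteasome subunit gene, was 129, 98 and 100 bp in these lists, against 99 bp in WT DD. The gap between NCU06721 and trp-5, which encodes tryptophanyl-tRNA synthetase, was 144, 149 and 97 bp, against 128 bp. These 3 pairs were chosen as examples among the 6 shortest facing gaps, after their values were seen, and in all 4 lists each pair was called as separate peaks.

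Almost every 1 to 2 kb peak had a counterpart in the other lists. A peak overlapped by at least 1 bp for 2579 of 2580 in WT LP30 and, in Δkmt1/Δdim-5, 2567 in DD and 2569 in LP30, against backgrounds of 96.9%, 95.4% and 95.7% of all WT DD peaks. The match was one-to-one for 98.3%, 97.3% and 97.1%, against backgrounds of 93.6%, 90.9% and 90.6%. The share with no counterpart was 0.0388% in WT LP30 and, in Δkmt1/Δdim-5, 0.504% in DD and 0.426% in LP30, while among the 414 peaks under 500 bp it was 30.9%, 36.2% and 34.3%.

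Edges were held more closely than summits. The left edge was displaced by a median of 18 bp in WT LP30 and, in Δkmt1/Δdim-5, 27 bp in DD and 30 bp in LP30, and the right edge by 19, 28 and 31 bp. The summit was displaced by a median of 62, 66 and 94 bp, and by more than 307, 336 and 374 bp in the most displaced 10%. Both edges stayed within 100 bp in 2027 peaks (78.6%) in WT LP30 and, in Δkmt1/Δdim-5, 1621 (62.8%) in DD and 1436 (55.7%) in LP30, against backgrounds of 72.9%, 54.8% and 48.3% of all peaks. The summit stayed within 100 bp in 1638 (63.5%), 1574 (61.0%) and 1327 (51.4%), against backgrounds of 60.3%, 56.2% and 47.7%. The edge counts were thus lower in the Δkmt1/Δdim-5 lists than in WT LP30, and both counts were lowest in Δkmt1/Δdim-5 LP30, a difference between lists with no replicate check. Peaks of 2 kb or more kept both edges within 100 bp in 69.8%, 51.0% and 44.0% and their summit in 50.8%, 46.7% and 41.9%. Peaks of 500 bp to under 1 kb kept both edges in 74.2%, 48.0% and 43.9% and their summit in 69.4%, 63.2% and 52.7%. In all 3 lists at once, 1041 of the 1 to 2 kb peaks (40.3%, against a background of 33.8%) kept both edges within 100 bp, 719 (27.9%, against 25.2%) kept the summit, and 319 kept all 3 points. The summit crossed the centre of the peak in 17.2%, 20.1% and 22.8%.

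The summit displacement varied with the width in each list, and with the control pileup mainly in the Δkmt1/Δdim-5 lists. Its median in the widest 25% of peaks was 77 bp in WT LP30 and, in Δkmt1/Δdim-5, 86.5 bp in DD and 126.5 bp in LP30, and in the narrowest 25% it was 55, 57 and 73.5 bp. In the 25% with the highest control pileup it was 58, 51 and 66 bp, and in the 25% with the lowest it was 64, 84.5 and 133 bp. The part of the control in the summit positions was not tested. Edges were displaced by a median of 16, 20 and 23 bp in the 25% with the highest ChIP pileup and by 25, 42 and 50 bp in the 25% with the lowest.

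The inner edge was displaced further than the gene-end edge. In the 1218 peaks with a single edge at a gene end, the gene-end edge was displaced by a median of 11 bp in WT LP30 and, in Δkmt1/Δdim-5, 14 bp in DD and 14 bp in LP30. The inner edge of the same peaks was displaced by 41, 58 and 83 bp. The gene-end edge was the less displaced of the 2 edges in 943 of 1218 peaks (77.4%) in WT LP30 and, in Δkmt1/Δdim-5, 964 of 1212 (79.5%) in DD and 1025 of 1214 (84.4%) in LP30. It stayed within 50 bp in 98.3%, 92.6% and 92.9%, and the inner edge did so in 57.3%, 45.4% and 35.8%. The direction differed between lists. In WT LP30 the median outward displacement of the inner edge was −18 bp, and the edge lay outward of its WT DD position in 33.7% of peaks. It lay outward in 64.4% of peaks in Δkmt1/Δdim-5 DD, by a median of 25 bp, and in 72.9% in Δkmt1/Δdim-5 LP30, by a median of 56 bp. An extension by more than 200 bp was found at 17, 167 and 246 inner edges and at 0, 4 and 5 gene-end edges. The median outward displacement of the gene-end edge was −8.5, −10 and −4 bp. The summit was displaced away from the gene end in 53.1%, 61.4% and 61.8% of the peaks, by a median of 4, 20.5 and 30 bp. These displacements relative to the gene end are given for this width class only, with no background from peaks of other widths. Whether they are particular to this class was not tested.

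**Figure D4:**
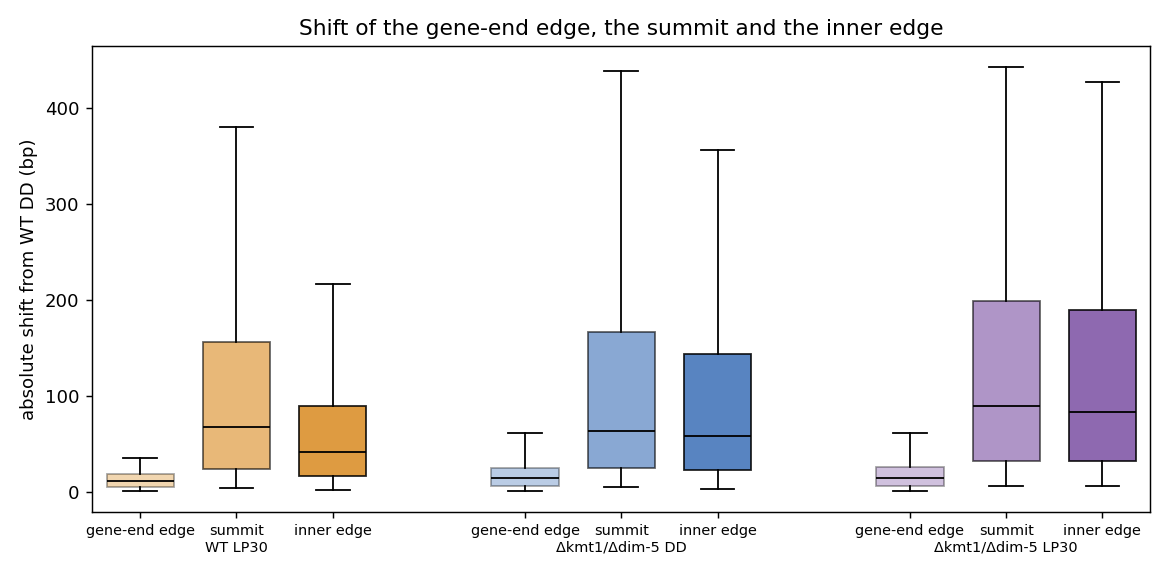
Absolute displacement from WT DD, in bp, of the gene-end edge, the summit and the inner edge of the 1 to 2 kb peaks with a single edge at a gene end (1218 peaks in WT LP30 and, in Δkmt1/Δdim-5, 1212 in DD and 1214 in LP30). Boxes span the interquartile range with the median as a line, and whiskers run from the 5th to the 95th percentile. The gene-end edge is the least displaced of the 3 points in each list, with medians of 11, 14 and 14 bp.

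The median width of the counterparts was 1425 bp in WT LP30 and, in Δkmt1/Δdim-5, 1496 bp in DD and 1527 bp in LP30, against 1453 bp in WT DD. The median change per peak was −21, 18 and 41 bp. Chosen the other way round, by a width of 1 to 2 kb in each other list, the median change from WT DD was −21, 18 and 38 bp, so the direction did not depend on the list that chose the peaks. A width of 1 to 2 kb was kept by 2428 peaks (94.1%) in WT LP30 and, in Δkmt1/Δdim-5, 2266 (87.8%) in DD and 2216 (85.9%) in LP30, and by 2069 (80.2%) in all 3. Those that left the class went to 2 kb or more in 38, 185 and 261 cases and to under 1 kb in 113, 116 and 92.

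The fold at the summit was lower for most of these peaks in the other lists. It was below the WT DD value in 81.5% of the counterparts in WT LP30 and, in Δkmt1/Δdim-5, 87.2% in DD and 81.0% in LP30, with medians of 1.69, 1.65 and 1.66, against 1.78 in WT DD. Over all peaks of each list the median fold was also lower, at 1.64, 1.58 and 1.60, against 1.73 in WT DD. The lower fold was thus not particular to the 1 to 2 kb peaks. Where the summits lay within 10 bp of each other, in 332, 306 and 237 peaks, the control pileup was 1.06, 1.09 and 1.06 times its WT DD value at the median. The 5th and 95th percentiles of this ratio were narrow, at 1.05 and 1.08, 1.08 and 1.11, and 1.04 and 1.07. The ChIP pileup at the same summits was 1.01, 1.02 and 1.02 times its WT DD value. Little can be read from this ratio, since 74.6% of the 1 to 2 kb peaks of WT DD had summits within 10% of the pileup limit, and the limit itself was 1.00, 1.03 and 1.01 times that of WT DD. The 4 lists share 1 control ChIP, and why its pileup differed between lists was not tested. The fold at these summits was 0.949, 0.937 and 0.960 times the WT DD value.

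Summed over both edges, the summit and the 3 other lists, NCU08410 on chromosome II (3968154 to 3969364) was displaced by 58 bp. Its width was 1187 bp in WT LP30 and, in Δkmt1/Δdim-5, 1214 bp in DD and 1203 bp in LP30, against 1211 bp in WT DD, and its summit moved by 3, 0 and 2 bp. NCU06740 followed with 64 bp, NCU06038 with 77 bp and NCU12111 with 86 bp, and in all 4 the gene-end edge lay within 30 bp of the end of the gene.

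The 4 largest summit displacements were at peaks that 1 peak of another list joined to a wider neighbour. The summit of NCU07157 was 3134 bp away in Δkmt1/Δdim-5 LP30, where 1 peak of 4883 bp spanned both the 1105 bp peak of this gene and the 3590 bp peak of NCU07156, 132 bp apart in WT DD. The peak of crp-2 (NCU07830), a ribosomal protein gene, was joined to the 3001 bp peak of NCU07828 in Δkmt1/Δdim-5 DD, at a displacement of 2995 bp, and stayed separate in the other lists. NCU04174 was joined to the actin gene act in Δkmt1/Δdim-5 DD, at 2646 bp. NCU03836 was joined to NCU03837 in both Δkmt1/Δdim-5 lists, at 2200 and 2438 bp. None of the 4 was joined in WT LP30. Most large displacements had no join, as 50 of 53 displacements over 500 bp in WT LP30 and, in Δkmt1/Δdim-5, 87 of 98 in DD and 98 of 112 in LP30 had a one-to-one match.

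**Figure D5:**
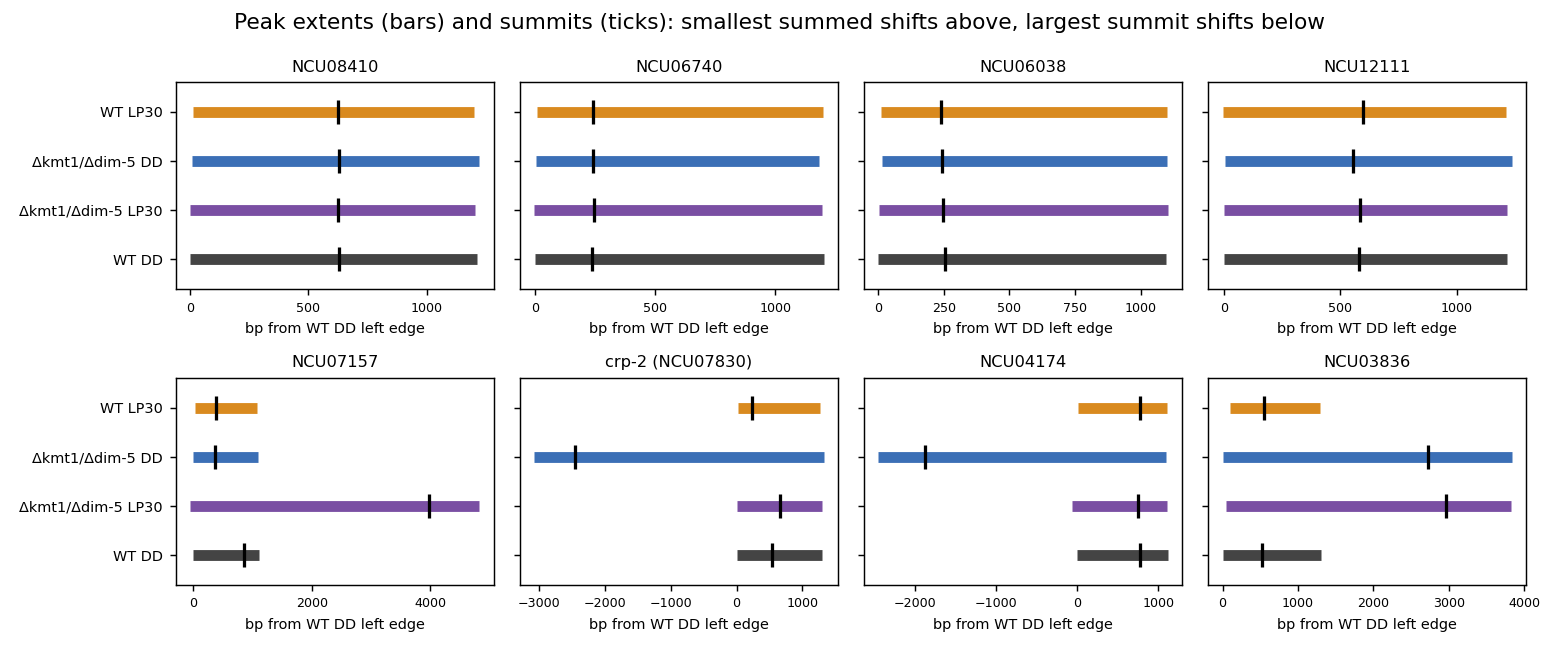
Extent (bar) and summit (tick) in each of the 4 H3K4me3 lists, in bp from the WT DD left edge, of the 4 peaks with the smallest summed displacement (top, 58 to 86 bp) and the 4 with the largest summit displacement (bottom, 2438 to 3134 bp). In the lower row the long bars of the Δkmt1/Δdim-5 lists join 2 WT DD peaks.

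A few peaks were present in both WT lists and absent from a Δkmt1/Δdim-5 list. A counterpart in all 3 other lists was found for 2566 of the 2580 peaks, against a background of 93.3% of all peaks. On the chromosomes no 1 to 2 kb peak lacked a counterpart in WT LP30, and 13 lacked one in at least 1 of the Δkmt1/Δdim-5 lists. One of them checks the strain label, since dim-5 (NCU04402, chromosome IV, 3481285 to 3482296), the gene deleted in Δkmt1/Δdim-5, carried a peak 1046 bp wide in WT LP30 and 1012 bp wide in WT DD. No peak touched the gene in either Δkmt1/Δdim-5 list, where the nearest one lay 475 bp away in the dark and 427 bp away after light. Of the other 12, 8 were absent from both Δkmt1/Δdim-5 lists and were at NCU07363, NCU08594, NCU06744, NCU09526, NCU08194, NCU09969, NCU09294 and NCU02328. NCU09994, NCU06261 and NCU02450 were absent only in the dark list and NCU06305 only in the light-pulsed list, and the counterparts in the other Δkmt1/Δdim-5 list were 232 to 635 bp wide with folds of 1.10 to 1.12. NCU09994, for example, was 1496 bp wide at a fold of 1.67 in WT LP30 and 1567 bp at 1.69 in WT DD, with no peak in Δkmt1/Δdim-5 DD and a peak of 254 bp at 1.11 in Δkmt1/Δdim-5 LP30.

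A small set of the peaks coincided with H3K9me3. H3K9me3 is the mark of heterochromatin made by DIM-5, and its lists were called as broad peaks against the H3K9me3 ChIP of Δkmt1/Δdim-5 in the dark. An H3K9me3 peak overlapped 23 of the 2580 peaks in WT LP30 and 23 in WT DD, against backgrounds of 1.35% and 1.3% of all H3K4me3 peaks, and 18 and 19 in Δkmt2/Δset-1 DD and LP30, against backgrounds of 0.809% and 0.877%. Of the 23 with H3K9me3 in WT DD, none lacked a counterpart or had one under 1 kb in WT LP30 and, in Δkmt1/Δdim-5, 11 (47.8%) did in DD and 10 (43.5%) in LP30. Of the 2557 without H3K9me3 the counts were 114 (4.46%), 118 (4.61%) and 93 (3.64%), and the backgrounds over all peaks of at least 1 kb were 3.34%, 3.92% and 3.14%. Both edges stayed within 100 bp in 19, 7 and 6 of the 23, or 82.6%, 30.4% and 26.1%, and in 78.5%, 63.1% and 55.9% of those without H3K9me3. The difference between the 2 sets was not tested, as peaks are not replicates, and dim-5 itself, which is deleted in the strain behind the H3K9me3 control, is one of the 23. With the 21 peaks whose H3K9me3 peak had a q under 0.01, the counts were 0, 10 (47.6%) and 9 (42.9%). NCU09362, NCU02434, NCU09892, NCU09803 and NCU06598 are named from this set after their values were seen. The peak of NCU09362 was 1872 bp wide in WT LP30 and, in Δkmt1/Δdim-5, 285 bp in DD and 344 bp in LP30, against 1874 bp in WT DD. That of NCU02434 was 2157, 333 and 373 bp wide, against 1906 bp. That of NCU09892 was 1678, 541 and 449 bp wide, against 1672 bp. Others of the set, such as NCU09803 at 1381, 1404 and 1332 bp against 1391 bp, kept their width, and NCU06598, at 1260, 1746 and 1797 bp against 1308 bp, was wider in the Δkmt1/Δdim-5 lists.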

How the data were processed

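H3K4me3 and H3K9me3 ChIP-seq of Neurospora crassa mycelia was used. The authors mapped reads to NC12 with BWA and called peaks with MACS2, with H3K4me3 of Δkmt2/Δset-1 DD as the control for the narrow H3K4me3 lists and H3K9me3 of Δkmt1/Δdim-5 DD as the control for the broad H3K9me3 lists. How replicates were combined is not given in the sources used here. In the deposited lists the columns are a score, the fold enrichment (a ratio), −log10 p, −log10 q and, for H3K4me3, the summit offset. The lowest −log10 p was 1.00 in the WT DD list. The 1 to 2 kb peaks, the gene lists and the measures were chosen with earlier results of these data known.

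At each summit the ChIP pileup k and the scaled control pileup λ follow from fold = (k + 1)/(λ + 1) and the Poisson p-value, and were computed so. Of the 1 to 2 kb peaks in WT DD, 99.8% gave a whole k within 0.02. The counterpart of a peak was the overlapping peak with the longest overlap, at least 1 bp. Gaps ran from edge to edge. Gene spans came from the RefSeq table of NC12 (10397 genes on 7 chromosomes, no strand), and all genes of the lists matched it. Coordinates are 1-based. Python 3.11.15, numpy 2.4.6, pandas 2.3.3, scipy 1.17.1 and matplotlib 3.10.9 were used, and the steps were tested on simulated peaks.

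Named genes hold, or are nearest to, the summits of the 8 peaks of highest fold, the 4 lowest and 4 highest summit offsets over width, the 4 longest gaps, the 4 smallest summed and 4 largest summit displacements, up to 4 peaks with no overlap in any other list (1 was found, off the chromosomes), genes of 5 lists, and 3 peaks on each side of each width limit. Other named genes are said in the text to have been chosen after their values were seen, or are all members of a count. No test was run, because each list covers both replicates of a condition. Alternatives were the position limits, the q limit, the list that defined the peaks, the overlap and the gene-end limit. No sequences are printed because no genome was used here. The deposited lists hold no counts, so the depth per sample is unknown.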

Additional observations from a re-analysis of the deposited data

How the results depend on the processing

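Over 22 counts and 48 alternatives, 36 values stayed within 1.5 times the count in the report and 12 did not. A narrower limit for the summit, the outer 20% of the width, gave 203 peaks in place of 451. A gap limit of 1000 bp gave 997 peaks in place of 525. With 50 bp in place of 100 bp, both Δkmt1/Δdim-5 lists kept fewer edges, 1044 peaks in DD and 892 in LP30, and the LP30 list kept 869 summits. Counting a peak as kept only when at least 50% of it was covered left 2 without a counterpart in WT LP30 and, in Δkmt1/Δdim-5, 24 in DD and 24 in LP30, and a q under 0.01 in both lists left 12, 26 and 24. Within 500 bp of a WT DD H3K9me3 peak lay 69 peaks. These 12 counts thus depended on the limit chosen, those of peaks without a counterpart included, and the reasons were not tested. Alternatives for the gene-end measures and for short facing gaps were added after seeing the data. With gene ends within 100 bp, the gene-end edge was the less displaced in 78.2%, 80.7% and 85.4% of peaks in WT LP30, Δkmt1/Δdim-5 DD and Δkmt1/Δdim-5 LP30, and 57.8% of facing pairs were under 1 kb apart.

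No paired analysis was possible because each list covers both replicates of a condition and no test was run. Leaving out a replicate could not be done for the same reason, and distances to start sites were not run, as the gene table used here gives no strands. The lists hold no read totals, so what depth limits could not be measured.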
